A study of Homo sapiens with 4 samples.

Results

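A set of 10 genes best known from neurons and neuroendocrine cells was followed in A2780s, a human ovarian adenocarcinoma line, after knockdown of GALNT3, an enzyme that starts mucin-type O-glycosylation. The members are UCHL1, the granin-related genes SCG2, SCG3 and SCG5, the synaptotagmins SYT1 and SYT4, the neuronal pentraxins NPTX1 and NPTX2, and the growth cone genes STMN2 and GAP43. They were found by the accession that the array files give for each probe, and all 10 genes of the 17240 that could be named had a probe, 12 probes in all. SCG3 and NPTX1 had 2 probes each, which were kept apart. The genes were chosen by name with the log2 ratios of the same arrays over the control clone already known, so those ratios are given as a description and carry no test.

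Total RNA of 2 stable clones, labelled sh-G1 and sh-G2, was set against RNA of 1 clone, ctrl, on 4 Agilent whole human genome arrays of 2 colours, to ask which transcripts differ when GALNT3 is suppressed. Both sh-G1 and sh-G2 carry a GALNT3 short hairpin RNA in the pSilencer 4.1 puro vector, and ctrl was mock-transfected with that vector. All 3 are puromycin-selected single clones, both hairpin clones carry the same hairpin, and the labels write the cell line of ctrl as A27803 in places and as A2780s in others. Each hairpin clone was hybridised in duplicate with the dyes exchanged: the hairpin clone was in Cy5 on replicate 1 and in Cy3 on replicate 2. No source says whether the duplicates came from separate cultures, so p-values for the difference between the clones measure a spread that may be technical. Those for the mean of both clones measure the spread between the 2 clones, their duplicates averaged first. With 1 clone, ctrl has no spread of its own.

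A probe's log2 ratio is the hairpin clone over ctrl on 1 array after background correction, an offset of 50 and loess normalisation, with the exchanged dyes turned, so that a negative value means less RNA in the hairpin clone. The arrays held 41000 probes, of which 39152 were well above background in at least 1 of the channels on each of the 4 arrays and were tested. Median spot intensity lay between 451.5 and 802.5 against a local background of 38 to 41, between 88.1% and 97.6% of probes were well above background in a channel, and no spot was saturated. Across all probes, log2 ratios of arrays with the same dye orientation correlated more closely (r = 0.61 and 0.73) than those of the same clone (r = 0.32 and 0.19), and 40.5% of probes changed sign with the dye on all 4 arrays.

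The only GALNT3 probe (A_24_P114249) gave log2 ratios of -0.09 and 0.08 for sh-G1 and of 0.12 and -0.14 for sh-G2, with a mean of -0.01. The probe was dim, with raw intensities of 64 to 91.5 in ctrl and of 61 to 74 in the hairpin clones, and in ctrl it passed the background call on 4 of 4 arrays, in the hairpin clones on 2 of 4. So close to background it could hardly show a decrease, and it does not check the labels in either direction. The study's methods state that the clones were checked by RT-PCR and Western blot, which were not analysed here. Every direction given below is that of the labelled clones against ctrl.

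Neurons and neuroendocrine cells store peptides in dense-core granules and transmitters in synaptic vesicles, both of which release their content when calcium enters the cell. Granins such as the secretogranins help to form the granules, prohormone convertases cut the stored precursors, and synaptotagmins couple calcium to membrane fusion. In most other cells the repressor REST holds many of these genes down, but single members of the programme are often seen in carcinomas, and UCHL1 (PGP9.5), a very abundant neuronal enzyme of the ubiquitin system, is one of them.

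UCHL1 stood apart from the other members: its RNA was 12.6-fold lower in sh-G1 and 15.2-fold lower in sh-G2 than in ctrl. No other member probe was at least 1.5-fold lower on all 4 arrays, and none was at least 1.5-fold higher on all 4, so that 1 of the 11 tested member probes met the first rule and 0 the second. Over all tested probes 0.919% met the first rule and 0.23% the second. By limma, an empirical Bayes linear model, on the mean of both clones, 0.7% of all tested probes were called lower and 0.138% higher at an adjusted p under 0.05, and no such call is given for the members. With the clones apart, 2 member probes were at least 1.5-fold lower on both arrays of sh-G1 (UCHL1 and 1 probe of SCG3) and 1 higher (SYT4), against 1.24% and 0.442% of all tested probes. In sh-G2 1 was lower (UCHL1) and 0 were higher, against 1.42% and 0.552%. Since this contrast served to choose the members, nothing is read from these counts. Of the 11 tested probes, 7 stayed within 1.5-fold of ctrl on all 4 arrays.

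**Figure D1:**
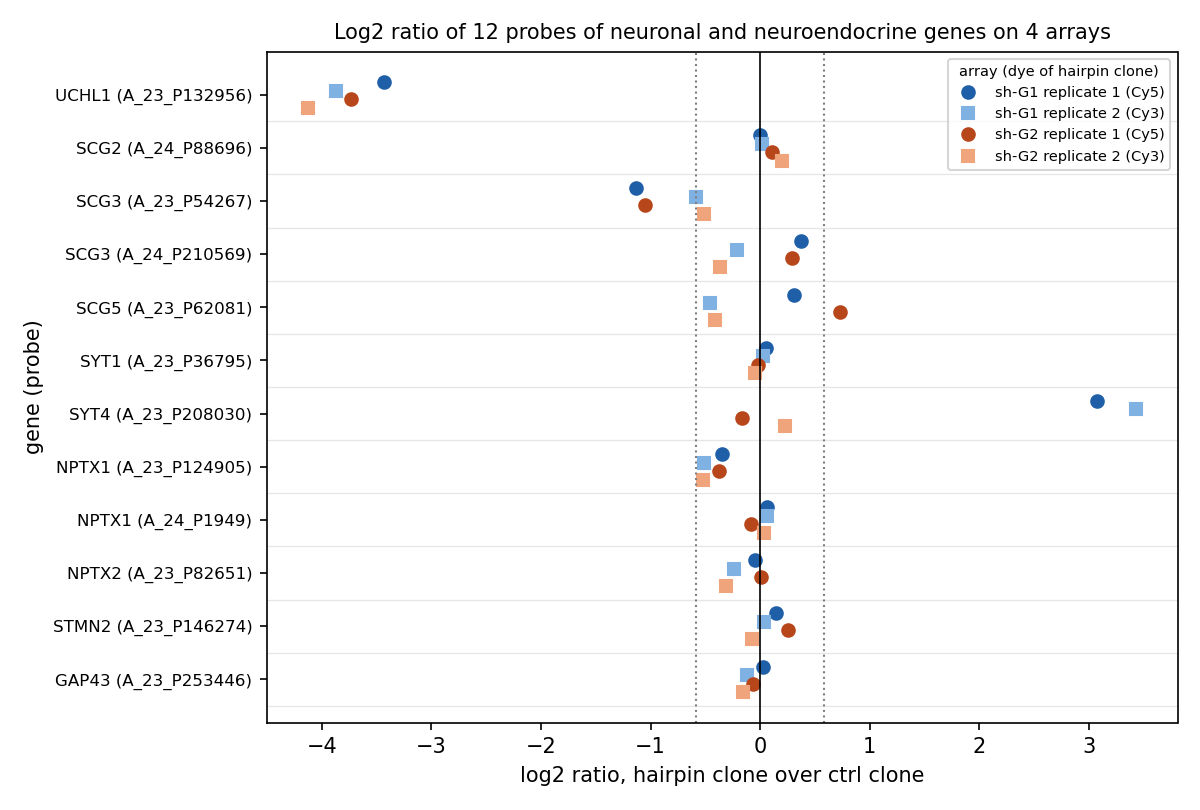
Log2 ratio of the hairpin clone over ctrl (horizontal axis) for each of 12 probes of the 10 genes (vertical axis), 1 point per array, with circles for the hairpin clone in Cy5 and squares for Cy3. Dotted lines mark 1.5-fold. The 4 points of UCHL1 lie between -4.12 and -3.44, the 2 points of sh-G1 for SYT4 lie at 3.07 and 3.43, and SCG5 and SCG3 (A_24_P210569) change sign with the dye.

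UCHL1 cleaves ubiquitin from short adducts and keeps free ubiquitin available. Its 250 bases before the RefSeq gene start lie at chr4:41256678-41256927 (GRCh38.p14, plus strand) and are shown, as RefSeq gives them, because UCHL1 is the member with the largest difference in both clones. Capitals mark CG dinucleotides, the bases at which a promoter can be methylated.
UCHL1: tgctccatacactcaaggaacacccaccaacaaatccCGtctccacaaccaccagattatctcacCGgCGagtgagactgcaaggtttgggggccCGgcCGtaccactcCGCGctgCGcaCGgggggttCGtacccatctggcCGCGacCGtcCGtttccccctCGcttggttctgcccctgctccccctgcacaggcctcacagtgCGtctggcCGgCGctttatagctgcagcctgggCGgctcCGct
The stretch holds 20 CG dinucleotides, 0.805 of the number its base composition predicts, where the median of 35116 promoters of this length is 0.558. The letters TATAAA stand 29 to 24 bases before the start on the opposite strand and, without overlap, the GC box letters GGGCGG 13 to 8 bases before it. Searched on both strands, TATAAA is found in 10.7% and GGGCGG in 42.6% of all promoters. Methylation was not measured on these arrays.

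The raw intensity of the UCHL1 probe (A_23_P132956) in ctrl was 69277 and 40399 beside sh-G1 and 71477 and 48029 beside sh-G2. In the hairpin clones it was 3759 and 2728 in sh-G1 and 3512 and 2970 in sh-G2. The hairpin values of all 4 arrays thus lay far below every ctrl value, and in both clones the probe was still well above background.

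On the normalised log2 scale, the level of UCHL1 in ctrl was 15.61, 15.60, 15.62 and 15.59, and in the hairpin clones 12.17 and 11.74 (sh-G1) and 11.89 and 11.47 (sh-G2). The log2 ratios were -3.44 and -3.87 for sh-G1 and -3.73 and -4.12 for sh-G2. Their mean was -3.79 (SD 0.20, n = 2 clones), a 13.8-fold difference that left 7.23% of the ctrl level, and only 5 of the 39152 tested probes had a lower mean. The log2 ratio with the hairpin clone in Cy3 was lower than that in Cy5 in both clones, by less than a log2 unit. In RNA from a whole culture, fewer cells that express a gene and less RNA per cell cannot be told apart.

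The clones themselves did not differ detectably in UCHL1: the difference in log2 ratio, sh-G2 minus sh-G1, was -0.28 (SE 0.13, 95% interval -0.61 to 0.06, limma adjusted p = 0.754). The interval allows a further decrease of up to 0.61 log2 units in sh-G2. This contrast leaves ctrl out, and it was run on all tested member probes. It is formed from log2 ratios that were already known when the members were chosen, so its p-values only describe the members.

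Among the tested genes whose 4 log2 ratios lay nearest to those of UCHL1, by Euclidean distance over the 4 arrays, were NAP1L3 (distance 0.46), ANXA3 (0.77), PTGER4 (0.88) and FLRT3 (0.93). NAP1L3, a nucleosome assembly protein-like gene, had log2 ratios of -3.26, -3.68, -3.86 and -4.49. As in UCHL1, the lower value of each clone was on the array with the hairpin clone in Cy3. The other 3 had means of -3.53 (ANXA3), -3.48 (PTGER4) and -3.67 (FLRT3).

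**Figure D2:**
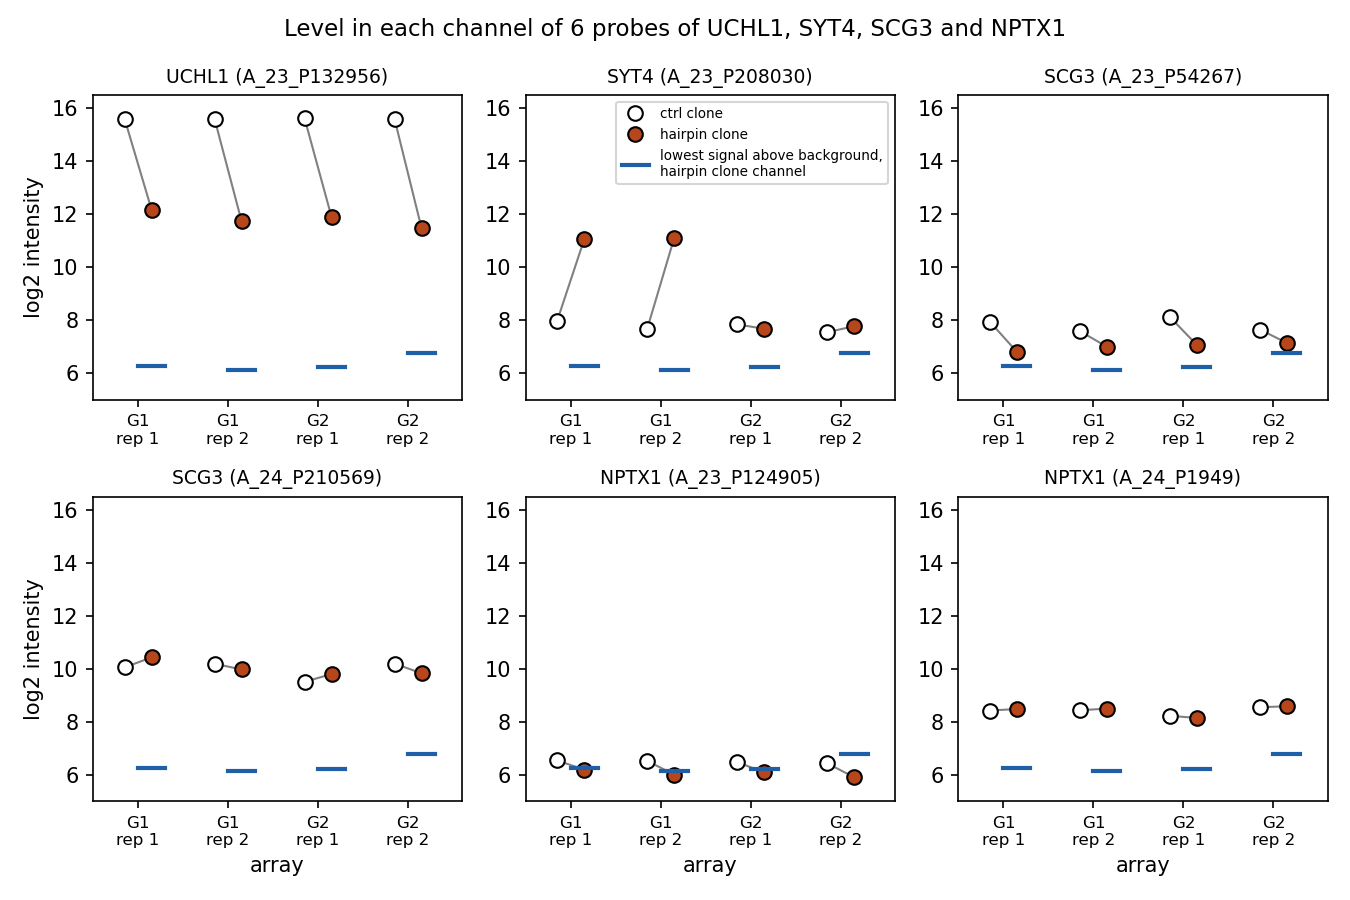
Normalised log2 intensity (vertical axis) of 6 probes on each of the 4 arrays (horizontal axis), with open circles for ctrl, filled circles for the hairpin clone joined to them by a line, and a blue bar for the lowest signal that counted as well above background in the hairpin clone's channel. UCHL1 drops from about 15.6 on every array to between 11.47 and 12.17, SYT4 rises only on the arrays of sh-G1, and NPTX1 (A_23_P124905) lies below the blue bar in the hairpin clones.

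SYT4 was the member that separated the clones. Synaptotagmin 4 sits on dense-core and other regulated vesicles and, unlike synaptotagmin 1, is a poor calcium sensor. Its RNA was 9.52-fold higher than in ctrl in sh-G1 and close to the ctrl level in sh-G2. The 250 bases before its start, at chr18:43277491-43277740 (GRCh38.p14, minus strand, from RefSeq, capitals again marking CG), are shown beside those of UCHL1 because the member moved in 1 clone alone.
SYT4: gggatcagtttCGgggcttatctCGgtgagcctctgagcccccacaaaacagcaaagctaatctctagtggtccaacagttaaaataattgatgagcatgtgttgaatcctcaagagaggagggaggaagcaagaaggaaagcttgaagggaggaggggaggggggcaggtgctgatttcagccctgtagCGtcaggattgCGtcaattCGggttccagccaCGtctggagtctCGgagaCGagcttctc
This stretch holds 8 CG dinucleotides, 0.484 of the predicted number, and neither TATAAA nor GGGCGG.

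The raw intensity of the SYT4 probe (A_23_P208030) was 1774 and 1772 in sh-G1 against 348 and 170 in ctrl on the same arrays. In sh-G2 it was 165 and 226.5 against 278.5 and 172 in ctrl. Both sh-G1 values lay above all 4 ctrl values, while those of sh-G2 lay within or just under the ctrl range.

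The log2 ratios of SYT4 were 3.07 and 3.43 in sh-G1 and -0.17 and 0.23 in sh-G2. The clone means were 3.25 and 0.03, and the difference, sh-G2 minus sh-G1, was -3.22 (SE 0.09, 95% interval -3.45 to -3.00, limma adjusted p = 0.00312 over all tested probes). SYT4 was the only one of the 11 tested member probes that passed this test, and 0.123% of all tested probes did, 0.0843% with the lower value in sh-G2 and 0.0383% with the higher. The number of probes that passed was 48. As the same log2 ratios were known when the members were chosen, nothing is read from the member count. With 1 array left out, a clone kept 1 array and the dye term could not be fitted, so only the size of the difference is given. It lay between -3.42 and -3.02 for SYT4. On all 4 arrays without a term for the dye, the limma adjusted p of SYT4 was 0.0783, the highest of its alternatives.

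With the dye term, the log2 differences between the clones for the other 10 tested member probes lay between -0.28 (UCHL1) and 0.23 (SCG5, 95% interval -0.10 to 0.56), with limma adjusted p between 0.754 and 0.998. Among the genes nearest to SYT4 over the 4 arrays, a list added after the values of SYT4 had been seen, were SHISA3 (distance 0.64), PPP1R1C (1.22), FMN2 (1.25) and ASB5 (1.27). SHISA3 had log2 ratios of 2.53 and 3.31 in sh-G1 and of -0.24 and -0.07 in sh-G2, high in sh-G1 alone as SYT4 was.

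SYT1, the fast calcium sensor of synaptic vesicles, gave log2 ratios of 0.05 and 0.03 in sh-G1 and of -0.02 and -0.05 in sh-G2. Its mean of 0.00 (SD 0.05, n = 2 clones) was at the ctrl level in both clones. The probe was well above background in every channel, with raw intensities of 320 to 710.

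Among the granin-related members the 2 SCG3 probes disagreed. Secretogranin III binds chromogranin A and the granule membrane. Probe A_23_P54267 had raw intensities of 313.5, 165, 333 and 180.5 in ctrl against 84 and 100 in sh-G1 and 102 and 144.5 in sh-G2. Every hairpin value lay below every ctrl value. Raw values are not corrected for the brightness of the channels, and ctrl's channel had the higher median on every array but replicate 2 of sh-G2. Its log2 ratios were -1.14, -0.59, -1.06 and -0.51, a mean of -0.82 (SD 0.06, n = 2 clones), or 1.77-fold lower.

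Probe A_24_P210569, which carries the same SCG3 accession, had log2 ratios of 0.38 and -0.21 in sh-G1 and of 0.29 and -0.37 in sh-G2. The sign followed the dye and the mean was 0.02 (SD 0.08). Raw intensities were 1480, 1008, 960 and 1144 in ctrl and 1128, 793, 756 and 956 in the hairpin clones. Before normalisation this probe, too, was thus lower in the hairpin clone on each array. SCG3 was therefore lower in both clones by 1 of its 2 probes only.

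SCG5 encodes 7B2, the chaperone and inhibitor of the convertase PCSK2. Its log2 ratios were 0.31 and -0.46 in sh-G1 and 0.72 and -0.41 in sh-G2. Here, too, the sign followed the dye, and the mean of 0.04 (SD 0.16) was smaller than the gap between the arrays of either clone. SCG2, the precursor of secretoneurin, was not well above background on any array in the hairpin clones and on 1 of 4 arrays in ctrl. Its raw intensities were 48 to 86 in ctrl and 47 to 69 in the hairpin clones, it was left out of the tests, and no fold is given.

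The pentraxins NPTX1 and NPTX2 are secreted proteins that gather AMPA receptors at synapses. NPTX1 probe A_23_P124905 gave raw intensities of 97, 75, 92 and 78.5 in ctrl and of 61.5, 54, 51 and 62 in the hairpin clones. All of the latter were lower, without correction for the brightness of the channels. It passed the background call on 4 of 4 arrays in ctrl and on 0 of 4 in the hairpin clones. It was thus tested through ctrl alone, and only a bound can be had. In the mean over the arrays ctrl was at least 1.1-fold higher. The bound is the mean normalised level of ctrl over the higher of the probe's own level and the lowest signal above background on each array. On replicate 2 of sh-G2 that lowest signal (6.77) lay above the ctrl level (6.43), so the bound does not hold array by array.

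The measured log2 ratios of this NPTX1 probe were -0.35, -0.51, -0.38 and -0.52 (mean -0.44), with the hairpin channel at background. By the other probe, A_24_P1949, which was well above background in every channel, NPTX1 had log2 ratios of 0.06, 0.06, -0.08 and 0.04 and a mean of 0.02 (SD 0.06). The measurable NPTX1 probe was thus at the ctrl level in both clones. NPTX2 gave -0.05 and -0.24 in sh-G1 and 0.01 and -0.31 in sh-G2, a mean of -0.15 (SD 0.01), with the lower value on the Cy3 array of each clone.

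The growth cone members stayed near ctrl. STMN2, a tubulin-binding stathmin, had log2 ratios of 0.14, 0.03, 0.26 and -0.07 and a mean of 0.09 (SD 0.00). It was dim, with raw intensities of 89 to 126 in ctrl and of 91 to 94 in the hairpin clones, and in the latter it passed the background call on 3 of 4 arrays. GAP43, a membrane-attached substrate of protein kinase C in growing axons, had log2 ratios of 0.02, -0.12, -0.06 and -0.16 and a mean of -0.08 (SD 0.04). Neither gene was 1.5-fold apart from ctrl on any array.

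How far a dim probe appears to fall depended on the background step. With an offset of 0 in place of 50 the mean log2 ratio of NPTX1 (A_23_P124905) was -1.39 and that of SCG3 (A_23_P54267) -1.20, and by the scanner software's own ratio they were -1.73 and -1.34. Under each of these, 3 member probes (UCHL1, SCG3 and NPTX1) were at least 1.5-fold lower on all 4 arrays in place of 1. The bright UCHL1 probe moved little, with means of -3.81 and -3.76. Without replicate 2 of sh-G2 the count was 2, UCHL1 and SCG3.

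**Figure D3:**
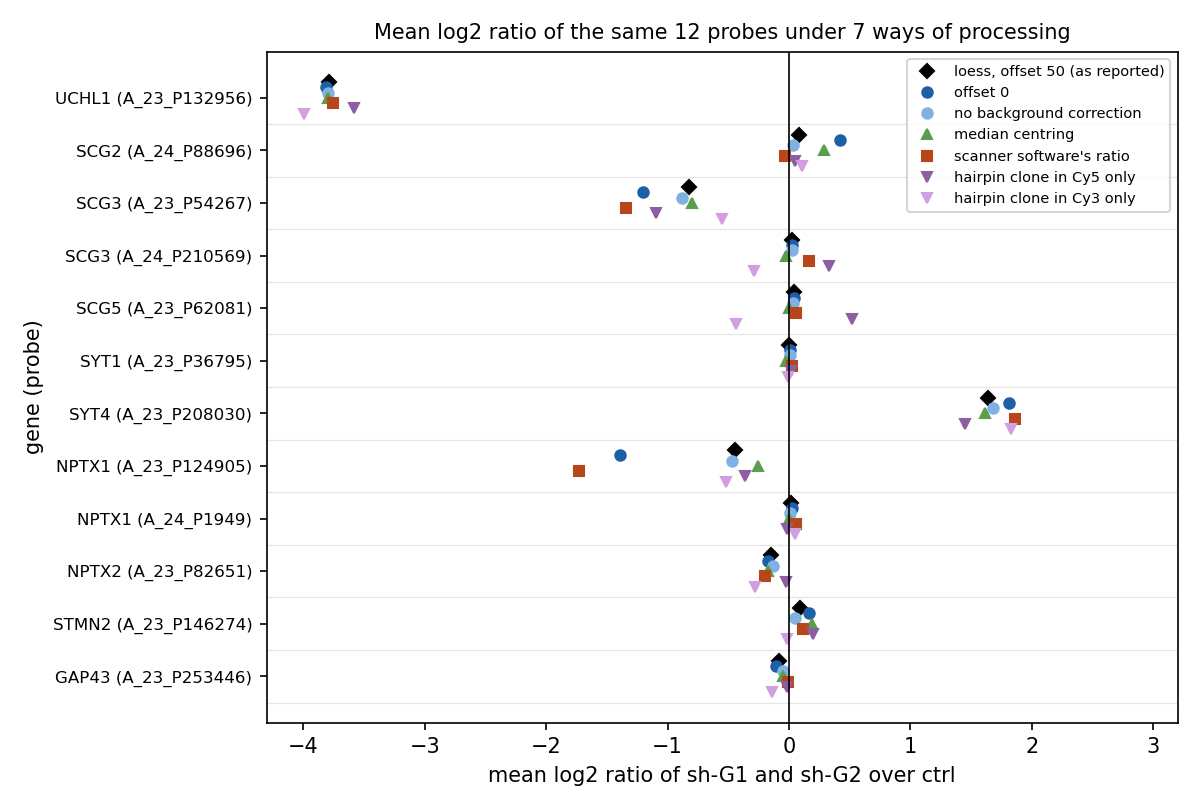
Mean log2 ratio of both hairpin clones over ctrl (horizontal axis) for the 12 probes (vertical axis), 1 symbol for each of 7 ways of processing the same arrays. UCHL1 keeps to between -4.00 and -3.58, NPTX1 (A_23_P124905) spreads from -1.73 to -0.26, and SCG3 (A_24_P210569) and SCG5 lie on opposite sides of 0 for the 2 dye orientations.

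RefSeq promoters of the same length were read for 7 of the 10 members (UCHL1, SCG3, SCG5, SYT1, SYT4, NPTX2 and GAP43), and those of SCG2, NPTX1 and STMN2 were not used here. Each motif was searched on both strands. GGGCGG was found in 4 of the 7 (UCHL1, SCG5, SYT1 and NPTX2), against 42.6% of all promoters, and TATAAA in 1, UCHL1. GGACAG, the right part of the site that REST binds, was found in SYT1 and GAP43 and in 17.2% of all promoters. The left part, TTCAGCACC, and the cyclic AMP element TGACGTCA were found in 0 of the 7 and in 0.288% and 1.65% of all. The share of the predicted CG dinucleotides ran from 0.469 in SCG5 to 1.01 in NPTX2, with 0.684 in SCG3, 0.548 in SYT1 and 0.653 in GAP43.

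Other genes of the same programme were read from 8 lists: 126 genes of granules, vesicles, synapses, the neuronal cytoskeleton, ubiquitin hydrolases, neuroendocrine identity and the REST complex. Each gene was taken by its brightest probe, and 122 were tested. By limma, 3 were lower than ctrl at an adjusted p under 0.05 (NEFL, BASP1 and INA) and 0 were higher. That was 2.46% of the 122, where 0.906% of all 16882 genes were called lower and 0.184% higher. The lists, like the members, were chosen with earlier results of these data known. The study's own selection of lowered genes names NEFL, BASP1 and INA, and among others DPYSL2, TAC3 and the members UCHL1, SCG3 and NPTX1. The calls and shares against ctrl, by limma or by fold, therefore describe the lists, and nothing is read from them. The unadjusted p was under 0.05 for 18 lower and 6 higher genes of the lists, against 9.09% and 6.24% of all genes. The median log2 ratio was -0.01 in the lists and 0.00 over all genes.

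The number called lower was 6 without replicate 1 of sh-G1, 9 without replicate 2 of sh-G1 and 8 without replicate 1 of sh-G2. When ctrl was given the same spread as the hairpin clones, it was 0. By the rule of 1.5-fold on all 4 arrays 5 genes were lower (NEFL, DPYSL2, BASP1, INA and TAC3) and 0 higher, 4.1% of those tested, where 1.29% and 0.355% of all genes met it. Without replicate 2 of sh-G1 the number lower was 8. None of the 122 was called different between the clones by limma, where 0.124% of all genes were called lower and 0.0592% higher in sh-G2 than in sh-G1. At an unadjusted limma p under 0.05, 7 of the 122 were lower and 5 higher in sh-G2, where 531 and 594 of all 16882 genes were.

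**Figure D4:**
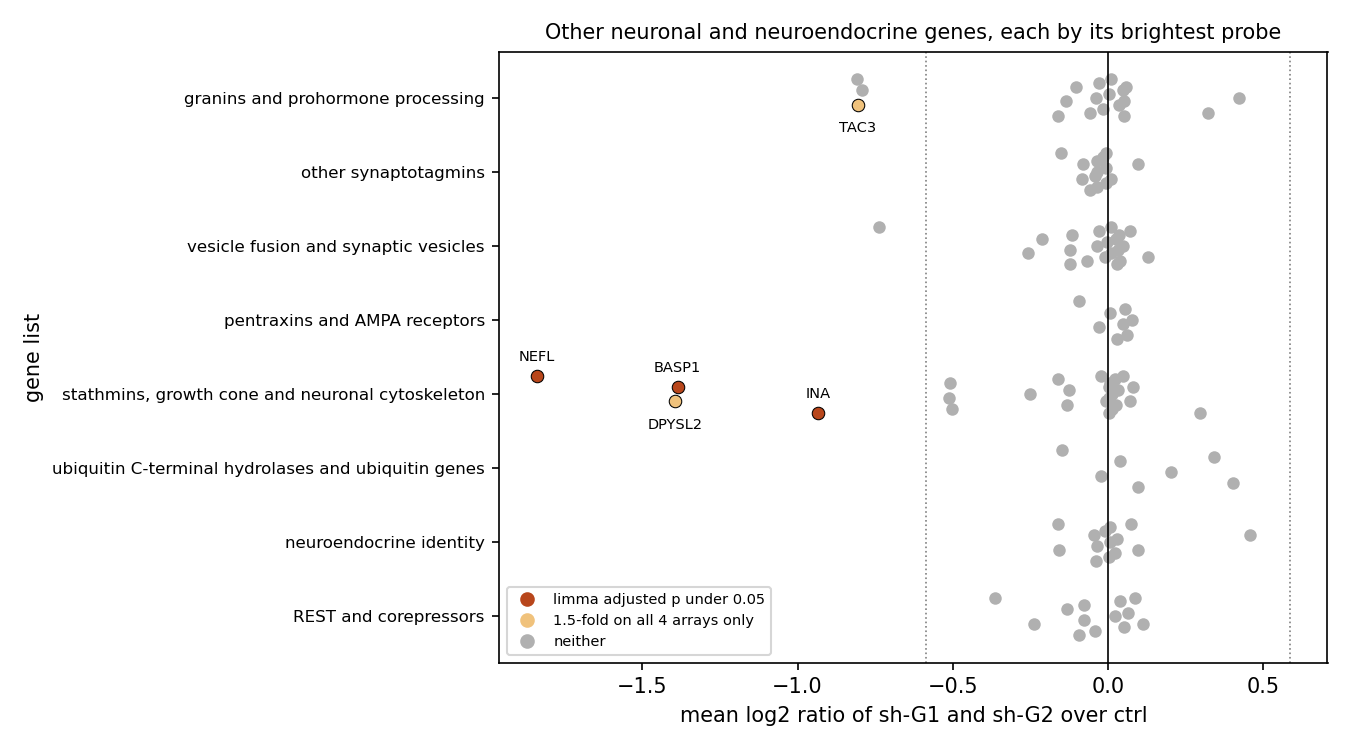
Mean log2 ratio of both hairpin clones over ctrl (horizontal axis) for 122 genes of 8 lists (vertical axis), 1 point per gene by its brightest probe, with dotted lines at 1.5-fold. Most points lie near 0, and the named genes to the left, 4 of the 5 in the cytoskeleton list, are those that passed limma or were 1.5-fold lower on all 4 arrays.

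The list of stathmins, growth cone and neuronal cytoskeleton genes held all 3 calls: 3 of its 26 tested genes were called lower and 0 higher. At an unadjusted p under 0.05 by limma, 7 were lower and 0 higher, and 4 were at least 1.5-fold lower on all 4 arrays. Its median log2 ratio was 0.00. NEFL, the light neurofilament subunit, had log2 ratios of -2.18 and -1.81 in sh-G1 and of -2.02 and -1.34 in sh-G2, a mean of -1.84 (SE 0.09, limma adjusted p = 0.0260). Its other probe had a mean of -0.61 and did not pass (adjusted p = 0.0527). All 4 arrays lay below ctrl by either probe.

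BASP1, a growth cone protein often described together with GAP43, had log2 ratios of -1.51, -1.45, -1.28 and -1.30 (mean -1.39, SE 0.08, limma adjusted p = 0.0295). INA, alpha-internexin, another neurofilament subunit, had -0.91, -1.02, -0.91 and -0.89 (mean -0.93, SE 0.06, limma adjusted p = 0.0380). DPYSL2, which encodes the tubulin-binding protein CRMP2, had -1.27, -1.04, -1.67 and -1.59 and a mean of -1.40 that did not pass (limma adjusted p = 0.0740). Its other probes had means of -1.23 and -0.11, so the probes of DPYSL2 disagreed as those of SCG3 did. STMN1, the stathmin of dividing cells, had a mean of 0.30.

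In the list of granins and prohormone processing 0 of 19 tested genes were called (3 lower and 2 higher at an unadjusted p under 0.05), and the median log2 ratio was -0.02. TAC3, the precursor of neurokinin B, had log2 ratios of -0.59, -0.73, -0.80 and -1.10 (mean -0.81, limma adjusted p = 0.0873). CHGB, the granin secretogranin I, had -1.09 and -0.35 in sh-G1 and -1.21 and -0.59 in sh-G2 (mean -0.81, limma adjusted p = 0.0575), and its other probe a mean of -0.49. The 4 values were below 0, with the smaller ones on the Cy3 arrays. CHGA, the other main granin, had a mean of -0.14.

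None of the 14 other synaptotagmins tested was called by limma (1 lower at an unadjusted p under 0.05), and their mean log2 ratios lay between -0.15 and 0.10. In sh-G1, where SYT4 stood at 3.25, those 14 lay between -0.16 and 0.07. Of 21 genes of vesicle fusion and synaptic vesicles, 0 were called (3 lower unadjusted). Their mean log2 ratios lay between -0.74 and 0.13, and that of SYP, synaptophysin, was 0.07. Of 8 genes of pentraxins and AMPA receptors 0 were called (0 unadjusted), and NPTXR, the membrane-bound neuronal pentraxin receptor, had a mean of -0.10.

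Of 7 ubiquitin C-terminal hydrolase and ubiquitin genes, 0 were called by limma (3 higher at an unadjusted p under 0.05). UCHL3, the closest relative of UCHL1 in the list, had log2 ratios of 0.37, 0.45, 0.34 and 0.45 and a mean of 0.40 that did not pass (limma adjusted p = 0.145). Its 4 values were positive where those of UCHL1 were below -3. None of 14 neuroendocrine identity genes was called (2 lower and 1 higher unadjusted). Their means lay between -0.16 and 0.46, with 0.03 for NCAM1 and -0.04 for ENO2. REST itself had a mean of -0.36 that did not pass (limma adjusted p = 0.336) and -0.18 by its other probe, and 0 of the 13 genes of its list were called (2 lower unadjusted).

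Cell type markers were read in the same arrays. The summed level of 8 neuroendocrine markers, on the linear scale of normalised intensity, was 3883 to 4106 in ctrl, 3265 to 3477 in sh-G1 and 3408 to 3540 in sh-G2, and all 8 were well above background in every channel. That of 9 epithelial and ovarian markers was 16774 to 19506 in ctrl, 7728 to 8603 in sh-G1 and 8413 to 9202 in sh-G2. Both sums were lower in the hairpin clones without overlap, but each rested on 1 or 2 genes. Without CHGB the neuroendocrine sum was 2727 to 3118 in ctrl, 2687 to 2803 in sh-G1 and 2767 to 2980 in sh-G2, and without KRT8 and KRT18 the epithelial sum was 4270 to 5802, 4551 to 5193 and 4769 to 5257, so that the groups overlapped. All 9 epithelial markers were well above background in every channel.

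The epithelial keratins KRT18 (mean log2 ratio -2.32, limma adjusted p = 0.0365, and -2.50 and -1.96 by its other probes) and KRT8 (-1.03, limma adjusted p = 0.0316, and -0.44 by its other probe) fell, 2 of the 9 epithelial markers. Of 11 markers of other cell types 9 were tested, with a summed level of 32637 to 37671 in ctrl, 57925 to 62889 in sh-G1 and 64244 to 64475 in sh-G2. Without COL3A1, a fibrillar collagen, that sum was 2773 to 3037 in ctrl, 2720 to 2741 in sh-G1 and 2526 to 2576 in sh-G2, so that the higher sum was that of COL3A1 alone. COL3A1 was the 1 called and rose by its brightest probe (mean of 0.90 on the log2 scale, limma adjusted p = 0.0349), while its other probes, at 0.62 and 0.75, did not pass (limma adjusted p = 0.280 and 0.0573). At an unadjusted p under 0.05, 2 others were lower, PDGFRB (-0.78) and COL1A2 (-0.33, but 0.01 by its other probe), named after their values were seen. What part these shifts have in the values of the neuronal and neuroendocrine genes was not tested.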

How the data were processed

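RNA of each hairpin clone and of ctrl was hybridised by the authors as Cy3- and Cy5-labelled cRNA on 4 Agilent arrays, read with Agilent Feature Extraction (version 10.5.1.1 in the file header, 8.5.1.1 in the submitters' processing notes). The deposited array files hold the median intensity and local background of each spot and the authors' log10 ratio of Cy5 over Cy3. The deposited value table repeats that log10 ratio for 3 arrays, and for replicate 2 of sh-G1 it holds a score, the software's error of the ratio, which was not used.

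Intensities were corrected with normexp (offset 50) and loess-normalised within arrays in limma 3.58.1 (R 4.3.3), control and outlier spots left out, and spots of a probe averaged on the log2 scale. Of 41000 probes 61.9% were named through RefSeq accessions, older accessions being unnamed here. Arrays of a clone were averaged, and the mean of both clones was tested against 0 with limma and Benjamini-Hochberg adjustment over all 39152 probes kept, which leaves out the spread of ctrl. The clone difference was fitted over 4 arrays with a dye term. The number of arrays limits the precision. All 4 arrays shared 1 slide and 1 scan. The limma steps were run on simulated independent noise with added differences, without a dye effect or a shared ctrl. That check does not cover the dye pattern of these arrays. Alternatives changed the background, normalisation, probe filter, fold, dye, array and spread settings. Figures used Python 3 and matplotlib.

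The members and the gene lists were chosen with earlier results of these data known. Named were all member probes, GALNT3, listed genes past limma or the fold rule (at most 4 a list and direction), 10 fixed genes and the 5 genes nearest to UCHL1. Among the nearest genes, 2 are not reported here.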

Additional observations from a re-analysis of the deposited data

Results flagged for a closer look

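SYT4 differed between the hairpin clones: the difference in log2 ratio over ctrl, sh-G2 minus sh-G1, was -3.22 (limma adjusted p = 0.00312 over all tested probes, with a dye term), with 3.07 and 3.43 on the arrays of sh-G1 against -0.17 and 0.23 on those of sh-G2. No other member probe passed this test. The members were chosen with these log2 ratios known, so the p-value is given as a description.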

How the results depend on the processing

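No value that was called or past 1.5-fold changed sign. Values near 0 did: 7 of the 12 member probes (SCG2, SCG3 A_24_P210569, SCG5, SYT1, NPTX1 A_24_P1949, STMN2 and GAP43) and 4 of 17 listed genes (SYP, NCAM1, ENO2 and NPTXR), all within 0.10 of 0 as reported, changed sign under at least 1 alternative, such as SCG5 from 0.04 to -0.44 in Cy3 only. Of the listed genes' values under the alternatives, 250 kept their side of the threshold, 26 passed it only under the alternative and 13 no longer passed. The count of member probes 1.5-fold lower on all arrays, 1, was 3 with an offset of 0, the software ratio or the value table and 2 with the hairpin clone in Cy5 only, and ran from 1 to 2 when 1 array was left out. That of other listed genes, 5, was 9 by the value table or in Cy5 only and 3 at 2-fold (5 to 8 with 1 array left out). Listed genes called lower, 3, were 10 by the value table, 1 in Cy5 only, 20 in Cy3 only, 13 with clone as a random block and 0 with ctrl given the clones' spread (3 to 9 with 1 array left out), and those called higher, 0, were 8 in Cy3 only and 4 with the random block. All probes called lower, 274, were 794, 153, 3510, 1721 and 0 in that order (325 to 872 with 1 array left out), and those called higher, 54, were 216, 14, 3460, 848 and 0 (56 to 343) and 118 by the software ratio. Probes that differed between the clones, 48, were 21 by the value table and 31 where both channels had to be above background (28 to 419). The replicate numbers follow the dye orientation and pair no cultures. With the array number as a replicate block, 8 listed genes were called lower and 1 higher, and 935 and 316 of all probes. With no replicate block in the clone difference, an alternative chosen after seeing the data, 0 member probes and 5 of all probes were called, and SYT4 kept its difference of -3.22 without passing. The causes were not tested. Signal over background limits SCG2, STMN2, GALNT3 and 1 NPTX1 probe, and 2 clones against 1 limit every test.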
